A study of Mus musculus with 12 samples.

Results

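The aryl hydrocarbon receptor and its best known target genes are described here through the open chromatin of mouse hepatocytes. The set holds 7 genes: Ahr (the receptor), Arnt (its DNA-binding partner), Ahrr and Tiparp (which both dampen it), and the cytochrome P450 genes Cyp1a1, Cyp1a2 and Cyp1b1. Its members were the ATAC-seq peaks that overlap a gene of the set or lie within 30 kb of it, joined over libraries where they overlap. They made 176 of the 292665 regions in lists cut to equal length (273 regions when every deposited peak was joined). Each of the 12 libraries came from the hepatocytes of 1 mouse, 3 mice per group, separated by collagenase perfusion. Fbxl5-deleted mice fed 0.1% DDC (3,5-diethoxycarbonyl-1,4-dihydrocollidine, a compound that causes porphyrin accumulation and cholestasis) carried floxed Fbxl5 alleles and a Cre recombinase under the albumin promoter, which is active in hepatocytes. Floxed controls fed 0.1% DDC carried the same floxed alleles and no Cre. Fbxl5-deleted mice and floxed controls on standard diet completed the 4 groups, and the diets were given for 2 weeks. The sources used here do not give sex, age or strain background. FBXL5 is the part of a ubiquitin ligase that picks out an iron regulatory protein for degradation, and the design asks how its loss changes open chromatin with and without the liver injury of DDC.

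AHR waits in the cytosol with HSP90 and co-chaperones, moves to the nucleus when it binds a ligand such as a dioxin or a tryptophan metabolite, and there pairs with ARNT. The pair binds DNA at a short core, GCGTG, and switches on the CYP1 enzymes, which oxidise the ligands, together with Ahrr and Tiparp, whose products act back on the receptor. In liver, Cyp1a2 is expressed by hepatocytes without any inducer, while Cyp1a1 is low until the receptor is activated.

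The RefSeq promoter windows (GRCm38.p6, the assembly of mm10, 250 bases before to 50 after the start) of 4 genes are shown because they set the core motif beside the presence of a peak. They are printed in lower case on the gene's own strand, with each GCGTG, or CACGC for the same core on the other strand, in capitals.
Ahrr chr13:74292282-74292581 (minus strand): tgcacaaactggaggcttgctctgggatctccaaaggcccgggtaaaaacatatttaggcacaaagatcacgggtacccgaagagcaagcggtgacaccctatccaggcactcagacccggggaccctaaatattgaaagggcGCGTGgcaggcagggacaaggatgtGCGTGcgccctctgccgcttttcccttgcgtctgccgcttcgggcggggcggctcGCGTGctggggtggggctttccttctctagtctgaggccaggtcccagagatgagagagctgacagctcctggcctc
Cyp1a1 chr9:57697363-57697662 (plus strand): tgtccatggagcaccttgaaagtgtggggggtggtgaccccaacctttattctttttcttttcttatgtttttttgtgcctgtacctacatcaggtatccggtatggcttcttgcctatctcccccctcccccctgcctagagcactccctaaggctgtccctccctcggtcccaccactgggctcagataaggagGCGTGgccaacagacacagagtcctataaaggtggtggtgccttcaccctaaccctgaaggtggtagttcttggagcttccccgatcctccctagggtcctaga
Cyp1a2 chr9:57683606-57683905 (minus strand): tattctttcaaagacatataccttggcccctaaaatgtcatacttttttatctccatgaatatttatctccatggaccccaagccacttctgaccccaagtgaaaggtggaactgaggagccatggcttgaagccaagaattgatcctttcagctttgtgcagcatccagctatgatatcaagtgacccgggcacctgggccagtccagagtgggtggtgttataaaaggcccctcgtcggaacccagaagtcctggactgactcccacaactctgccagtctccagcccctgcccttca
Tiparp chr3:65528197-65528496 (plus strand): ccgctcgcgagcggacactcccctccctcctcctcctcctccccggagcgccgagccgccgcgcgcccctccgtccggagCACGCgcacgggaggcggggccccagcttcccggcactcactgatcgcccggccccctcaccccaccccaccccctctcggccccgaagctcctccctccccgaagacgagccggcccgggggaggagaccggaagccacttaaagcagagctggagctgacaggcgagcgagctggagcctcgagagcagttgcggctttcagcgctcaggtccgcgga
The Ahrr window holds 3 cores, 1 of them within the longer TNGCGTG, and a joined region present in 3 of the 12 lists overlapped it. The Cyp1a1 window holds 1 core, and no peak of the lists cut to equal length overlapped it. The Cyp1a2 window holds no core, and a joined region present in all 12 lists covered it whole. The Tiparp window holds 1 core and was covered by a joined region present in all 12 lists. The windows of Arnt and Cyp1b1 hold 1 core each, with a joined region of 12 lists over that of Arnt and none over that of Cyp1b1. Joined regions merge the peaks of all libraries, so the cover by each library's own peak was not measured. Among all 27025 RefSeq mouse promoter windows of this length, 32.5% hold GCGTG on either strand, 3.96% hold 3 or more, and 5.12% hold TNGCGTG. A match of these letters is a description and not a binding site.

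Each region was ranked within its library by the caller's fold enrichment (peak height over background), and the rank was turned back into a log2 fold enrichment common to the 12 libraries. All values below are these log2 levels, which place a region among the others of its library. Values ran from 1.27, given to a region absent from a list, to 5.48. The libraries held 137034 to 202912 peaks, except libraries 1 and 3 of the Fbxl5-deleted standard-diet group with 262080 and 260622, so the strongest 137034 peaks of each were used. At a −log10 q of at least 5 those libraries held the fewest peaks, 46949 and 56371. Control lists were shorter on the standard diet (137034 to 151836 peaks) than on DDC (179740 to 202912), without overlap. Their weakest kept peak had a fold enrichment of 1.38 to 2.46 on the standard diet and 2.59 to 2.84 on DDC. An absent region was thus absent down to a different fold enrichment on each diet. Read counts, and so sequencing depth, are unknown. A peak at an end of Fbxl5 was listed in all 12 libraries at 2.91 to 3.63, which does not check the deletion, because the sources used here do not give the deleted stretch. All 7 hepatocyte markers had a gene-end peak in every library. Their summed level was 18.89 to 20.36 in Fbxl5-deleted and 18.24 to 19.08 in control DDC libraries. On the standard diet it was 19.65 to 21.43 in Fbxl5-deleted and 18.95 to 20.11 in control libraries. These sums overlapped between the diets in both genotypes. In controls Ttr, Apob and Serpina1a were lower on DDC without overlap, and the other markers overlapped. In Fbxl5-deleted mice every hepatocyte marker overlapped. Of 6 macrophage and myeloid markers, 2 to 3 had one in Fbxl5-deleted DDC libraries and 2 to 5 in control DDC libraries, against 1 to 2 in each standard-diet group. The summed macrophage level adds the listed markers only, without the lowest value for absent ones, so it follows in part the number listed. It was 3.91 to 5.72 in Fbxl5-deleted DDC libraries and 4.86 to 9.14 in control DDC libraries. On the standard diet it was 1.41 to 4.16 in Fbxl5-deleted and 1.57 to 2.84 in control libraries. Cd68 was the macrophage marker listed in all 12 libraries, and Lyz2 was in 6 of 6 DDC libraries against 1 of 6 standard-diet ones. Csf1r and Adgre1 were listed in 1 and 2 libraries, all of them control DDC, while the Kupffer cell gene Clec4f was in 1 control DDC library against 2 Fbxl5-deleted standard-diet libraries. Of 6 stellate markers, 3 to 5 were listed in every library. Among them Reln was in all 12, at 2.83 to 3.14 on DDC and 3.16 to 3.83 on the standard diet. Col1a1 and Lrat, also in all 12, overlapped between the diets. Of all tested regions, 5.87% had no overlap between the diets. Of the cholangiocyte markers, Epcam (3.12 to 3.90) and Sox9 (2.65 to 3.25) were listed in all 12 libraries, Krt7 in the 3 Fbxl5-deleted standard-diet libraries and Krt19 in none. The endothelial marker Kdr (1.41 to 2.23) and the lymphocyte marker Cd4 (2.12 to 3.40) were also in all 12, whereas Pecam1, Lyve1 and Cd8a were in none. Other markers differed by diet. The cholangiocyte marker Spp1 was in 9 libraries, among them every DDC one. Ptprc of the lymphocyte list and Itgam of the macrophage list were in 3 libraries each, all on DDC. The lymphocyte marker Cd3e went the other way, in 5 libraries that included every control standard-diet one. The endothelial marker Stab2 was in 4 libraries, from both diets, and Clec4g in 1 control DDC library. The summed macrophage level was thus higher on DDC without overlap in controls and with overlap in Fbxl5-deleted mice, and the part of other cell types in each diet result below was not tested. In such bulk samples, fewer cells of a type with an open region and less opening per cell cannot be told apart.

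Many regions near these genes were in few lists, much as in the whole series, where 138538 of 292665 regions were in at least 3 lists. Of the 176 regions, 72 were in 1 list and 22 in 2, and these 94 were not tested. The other 82 were in at least 3 lists and entered the fit over all 138538 such regions, and 30 were in all 12. A region can pass that filter through the group where it is high, so the counts of called regions describe the set and are read against all tested regions. Per library, 63 to 76 of the 176 regions were listed. Arnt had the most regions with 57 (21 tested, 4 in all 12 lists), followed by Ahr with 31 (12 tested, 3 in all lists), Tiparp with 25 (13 and 6) and Ahrr with 22 (10 and 3), and Cyp1b1 had the fewest with 8 (4 and 1). Cyp1a1 and Cyp1a2 are neighbours on chromosome 9 and share 21 of their 33 regions, of which 22 were tested and 13 were in all 12 lists. Of the tested regions, 34 lay in a gene of the set and 11 in a neighbouring gene such as Edc3 or Exoc3. The annotation used gives no exons, so exonic and intronic regions are not told apart.

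On DDC, 2 to 8 of the 82 tested regions were called, depending on the comparison. In controls, 2 regions rose (2.44%, against 4.66% of all tested regions) and 4 fell (4.88%, against 2.36%), together 7.32% against 7.02%. In Fbxl5-deleted mice 2 rose (2.44%, against 2.43%) and 0 fell (against 0.743%), together 2.44% against 3.17%. Averaged over the genotypes, 4 rose (4.88%, against 8.1%) and 4 fell (4.88%, against 4.87%), together 9.76% against 13%. The members' median difference was -0.03 log2 in controls, -0.01 in Fbxl5-deleted mice and -0.04 on average, beside -0.01, 0.01 and -0.00 over all tested regions in these comparisons. In all, 11 regions were called in at least 1 comparison: 1 in both genotypes, 5 in controls and not in Fbxl5-deleted mice, 1 in Fbxl5-deleted mice and not in controls, and 4 only in the average. The averaged comparison shares its libraries with those within a genotype.

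At the gene ends, Arnt was the most open of the 7 genes and Ahrr the least. Within 1 kb of an end of each gene, the region with the highest mean level was taken. In descending order of mean these were at Arnt, Cyp1b1, Tiparp, Cyp1a1, Ahr, Cyp1a2 and Ahrr. The Cyp1a1 region of this order lies at the lower end of its annotated span, and the one nearest its RefSeq start, described below, had a mean of 3.65, against 3.48 at the Cyp1b1 region. The values of each gene overlapped those of its neighbour in this order. Between Arnt and Cyp1b1 the overlap was 1 Arnt value, 3.90 in library 2 of the Fbxl5-deleted DDC group, against a Cyp1b1 value of 3.97 in library 1 of the Fbxl5-deleted standard-diet group. Of the 7 gene-end regions, the Ahr one passed the test for DDC averaged over the genotypes, and none passed in any other comparison.

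**Figure D1:**
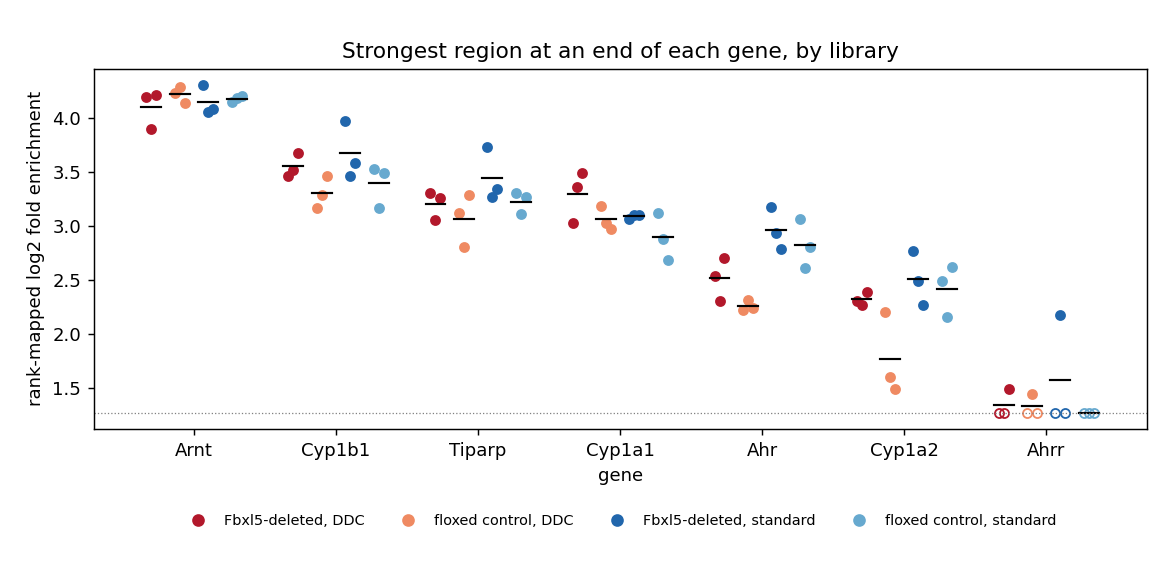
Level of the strongest region at an end of each of the 7 genes (vertical axis, rank-mapped log2 fold enrichment), with 1 point per library, 3 libraries per group, and a bar at each group mean. Open circles on the dotted line at 1.27 are libraries whose list lacks the region. The Arnt points lie at 3.90 to 4.31, and at Ahrr most libraries lack the region.

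The receptor itself showed 2 neighbouring regions that went opposite ways on DDC. Ahr (gene ID 11622, chr12:35497979-35534989) had 12 tested regions, 10 of them inside the gene. At chr12:35538833-35539420, 3844 bp beyond the higher-coordinate end of Ahr, the Fbxl5-deleted DDC libraries had 2.53, 2.16 and 2.40 and the control DDC libraries 2.52, 2.40 and 2.73, against 1.62, absent and absent in the Fbxl5-deleted standard-diet libraries and absent, 1.58 and 1.34 in the control standard-diet libraries. All 6 DDC libraries lay above all 6 standard-diet libraries. Of the 82 tested regions of the set, 1 lay above in this way and 1 below. Among all tested regions, 5.87% had no overlap between the 6 DDC and the 6 standard-diet libraries in either direction, a larger share than in the set. The difference was 1.16 ± 0.25 log2 in controls (SE, n = 3 against 3, limma, Benjamini-Hochberg adjusted p = 0.00604) and 0.98 ± 0.25 in Fbxl5-deleted mice (adjusted p = 0.0315), and it was the single region of the set called in both genotypes. Averaged over the genotypes it was 1.07 ± 0.17 (limma adjusted p = 0.000281), the largest rise of the set. These sizes rest in part on the lowest value, given to the 3 standard-diet libraries that lack the region. The call in Fbxl5-deleted mice was lost without DDC library 1, 2 or 3 or standard-diet library 2 or 3 of that genotype (limma adjusted p of 0.0541 to 0.102), whereas the averaged call was kept in each of the 12 fits that left out 1 library. With the number of deposited peaks as a covariate, neither genotype alone passed (limma adjusted p = 0.0677 in controls and 0.0751 in Fbxl5-deleted mice). In controls that number did not overlap between the diets, so the covariate goes with diet there. Without both Fbxl5-deleted standard-diet libraries that stand apart, the Fbxl5-deleted difference was 1.10 and did not pass (limma adjusted p = 0.148), and the averaged one was 1.13 and passed.

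At the higher-coordinate end of Ahr itself, chr12:35534006-35535381, the levels were 2.54, 2.30 and 2.70 in Fbxl5-deleted DDC libraries and 2.22, 2.32 and 2.24 in control DDC libraries, against 3.18, 2.93 and 2.79 in Fbxl5-deleted and 3.06, 2.61 and 2.80 in control standard-diet libraries. The DDC libraries were lower, with an overlap between the highest DDC library of the Fbxl5-deleted group and the lowest standard-diet library of the controls. Averaged over the genotypes the region fell by 0.51 ± 0.15 log2 on DDC (SE, limma adjusted p = 0.0326). In controls alone the difference was -0.57 (limma adjusted p = 0.127), and in Fbxl5-deleted mice it was -0.45 (adjusted p = 0.289). The averaged call was lost without any 1 of 8 libraries, namely DDC libraries 1 and 2 and standard-diet library 1 of the Fbxl5-deleted mice, and DDC libraries 1, 2 and 3 and standard-diet libraries 1 and 3 of the controls, at limma adjusted p of 0.0514 to 0.0847, and without both libraries that stand apart (adjusted p = 0.113). The strongest region of the gene, chr12:35506244-35506865, lay inside it with a mean of 3.39 and was 0.34 higher on DDC without passing the test (limma adjusted p = 0.093). A further region inside Ahr, chr12:35501424-35501857, fell on DDC in controls (limma adjusted p = 0.0384), where it was in 0 of 3 DDC lists against 3 of 3 standard-diet lists. All control DDC values were thus the lowest one, so the fall has no true size. The region was not called in Fbxl5-deleted mice or on average. Its call in controls was lost without control DDC library 1, 2 or 3 or control standard-diet library 1 or 2 (limma adjusted p of 0.0639 to 0.116).

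The start of Arnt was strongly open in every library and passed no test. Arnt (gene ID 11863, chr3:95434367-95497240) encodes the partner that AHR shares with the hypoxia-inducible factors. Its region chr3:95434086-95434899 runs from 304 bp before to 509 bp after the RefSeq start and ranked between 2123 and 8654 in the 12 lists, at a deposited fold enrichment of 15.1 to 22.7. The levels were 4.20, 3.90 and 4.21 in Fbxl5-deleted DDC libraries and 4.24, 4.29 and 4.14 in control DDC libraries, against 4.31, 4.06 and 4.09 in Fbxl5-deleted and 4.15, 4.19 and 4.21 in control standard-diet libraries. The 4 groups overlap. The averaged DDC difference was -0.00 ± 0.08 log2 (SE, 95% interval -0.17 to 0.16, limma adjusted p = 0.985).

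Of the other 20 tested regions near Arnt, 4 were called in some diet comparison, and each call depended on single libraries. At chr3:95424846-95425183, 9184 bp before the gene, the region was in 0 of 3 Fbxl5-deleted and 1 of 3 control DDC lists, against 1 of 3 Fbxl5-deleted and 3 of 3 control standard-diet lists. The listed values were 1.60 in control DDC library 3, against 2.52 in Fbxl5-deleted standard-diet library 2 and 2.46, 2.71 and 2.21 in the control standard-diet libraries. It fell by 1.08 ± 0.29 log2 in controls (SE, limma adjusted p = 0.0282) and by 0.75 ± 0.21 averaged over the genotypes (adjusted p = 0.02), sizes that rest largely on the lowest value given to absent regions. The first call was lost without control DDC library 1 or 2 or control standard-diet library 1 or 2 (limma adjusted p of 0.0665 to 0.108), and the second without control DDC library 2 (adjusted p = 0.0536). At chr3:95494329-95494622, near the higher end inside the gene, the levels were 1.88, 2.12 and 2.37 in Fbxl5-deleted DDC libraries and absent, 1.74 and 1.87 in control DDC libraries, against 1.37, 2.59 and 2.32 in Fbxl5-deleted and 2.79, 2.53 and 2.60 in control standard-diet libraries. The diets were apart in controls and overlapped in Fbxl5-deleted mice. The region fell in controls by 1.01 ± 0.30 (SE, limma adjusted p = 0.0435), and in Fbxl5-deleted mice the difference was 0.03 ± 0.30 (adjusted p = 0.974). The difference between these effects was 1.05 ± 0.42 (SE, limma adjusted p = 0.847), so they were not shown to differ. The call in controls was lost without DDC library 1 or 2 of the Fbxl5-deleted mice or any 1 of the 6 control libraries (limma adjusted p of 0.0512 to 0.176).

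At chr3:95511786-95512141, 14546 bp beyond Arnt and 2399 bp from Ctsk, the region was in 0 of 3 Fbxl5-deleted DDC lists and 3 of 3 control DDC lists, against 0 of 3 standard-diet lists of either genotype. Ctsk encodes cathepsin K, a lysosomal protease. It met the filter of at least 3 lists through the control DDC group alone, and all its other values were the lowest one. The p-values of this region therefore only describe it and lend no weight to a rise. In controls the limma adjusted p was 0.0286. The call was lost without control DDC library 2 or any 1 of the 3 control standard-diet libraries (adjusted p of 0.0729 to 0.0875). The genotypes on DDC were not called different there (limma adjusted p = 0.392). At chr3:95442760-95443117 inside Arnt the levels were 1.88, 2.18 and 2.37 in Fbxl5-deleted DDC libraries and 2.48, 1.73 and 1.64 in control DDC libraries, against 1.65 at most in the 2 Fbxl5-deleted standard-diet lists that hold it and 1.75, 1.35 and absent in control standard-diet libraries. The diets were apart in Fbxl5-deleted mice and overlapped in controls. The averaged DDC rise was 0.58 ± 0.19 log2 (SE, limma adjusted p = 0.0476), lost without DDC libraries 2 or 3 or standard-diet libraries 2 or 3 of the Fbxl5-deleted mice, or DDC libraries 1 or 2 or standard-diet libraries 2 or 3 of the controls (adjusted p of 0.0573 to 0.124), and without both libraries that stand apart (0.57 log2, adjusted p = 0.157).

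The genes that act back on the receptor had 1 region each that rose on DDC, away from their starts. TIPARP is a mono-ADP-ribosyltransferase that lowers AHR protein, and Tiparp (gene ID 99929) spans chr3:65528447-65555518. A 2000 bp region over its start, chr3:65527605-65529604, had 3.31, 3.05 and 3.26 in Fbxl5-deleted DDC libraries and 3.12, 2.80 and 3.29 in control DDC libraries, against 3.73, 3.27 and 3.34 in Fbxl5-deleted and 3.31, 3.11 and 3.27 in control standard-diet libraries. The groups overlap, and the averaged DDC difference was -0.20 ± 0.13 log2 (SE, 95% interval -0.47 to 0.07, limma adjusted p = 0.313).

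Upstream of Tiparp, chr3:65515504-65516297 lies 12150 to 12943 bp before the start. Its levels were 2.50, 2.98 and 3.33 in Fbxl5-deleted DDC libraries and 3.07, 3.10 and 2.84 in control DDC libraries, against 1.38, 2.35 and 1.70 in Fbxl5-deleted and 1.70, 2.53 and 2.15 in control standard-diet libraries. DDC libraries were higher in both genotypes, and only the lowest DDC library (Fbxl5-deleted, 2.50) overlapped the highest standard-diet library (control, 2.53). The averaged rise was 1.00 ± 0.20 log2 (SE, limma adjusted p = 0.00239) and held in each fit that left out 1 library. In Fbxl5-deleted mice it was 1.13 ± 0.29 (limma adjusted p = 0.0353), lost without DDC library 2 or 3 or standard-diet library 1 or 3 of that genotype or without control DDC library 1 or 2 (adjusted p of 0.0512 to 0.152). In controls the difference was 0.88 ± 0.29 (limma adjusted p = 0.0732), and the 2 genotypes' DDC effects differed by 0.26 ± 0.41 (adjusted p = 0.959). The next region towards the gene, chr3:65517759-65518515, differed by 0.73 on average and did not pass (limma adjusted p = 0.0577). Without both Fbxl5-deleted standard-diet libraries that stand apart in peak number, the averaged difference at the upstream region was 0.73 and no longer passed (limma adjusted p = 0.0517), while in Fbxl5-deleted mice it was 0.59 (adjusted p = 0.584).

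Ahrr (gene ID 11624, chr13:74211118-74292331) encodes a repressor that competes with AHR for ARNT. At its start, chr13:74292097-74292441, the region was listed in library 3 of the Fbxl5-deleted DDC group at 1.49 and in library 2 of the control DDC group at 1.44, against library 2 of the Fbxl5-deleted standard-diet group at 2.17 and no control standard-diet library. No group held it in more than 1 list, and the averaged DDC difference was -0.09 ± 0.13 log2 (SE, limma adjusted p = 0.698). Without both libraries that stand apart it was -0.39 and passed (limma adjusted p = 0.0413), with the 1 Fbxl5-deleted standard-diet library that lists the region standing for its group. The open regions around Ahrr that were strong in all 12 lists belonged to its neighbours: chr13:74208311-74209396 in Exoc3 ranged from 3.89 to 4.49 and chr13:74316701-74317862 in Pdcd6 from 3.63 to 4.17, both singled out after their values were seen. Inside Ahrr, chr13:74259676-74260678 was in 3 of 3 lists of each DDC group, against 1 of 3 Fbxl5-deleted and 2 of 3 control standard-diet lists. The levels were 1.90, 1.77 and 2.27 in Fbxl5-deleted DDC libraries and 2.42, 2.70 and 1.53 in control DDC libraries, against 1.82 in the single Fbxl5-deleted standard-diet library and 1.37 and 1.65 in control standard-diet libraries 1 and 2. The diets overlapped in both genotypes. Its averaged rise was 0.66 ± 0.21 (SE, limma adjusted p = 0.0406), lost without any 1 of 8 libraries, namely DDC library 1 or 3 or standard-diet library 1 or 3 of the Fbxl5-deleted mice and DDC library 1 or 2 or standard-diet library 1 or 3 of the controls (adjusted p of 0.0601 to 0.112), and without both libraries that stand apart (0.47 log2, adjusted p = 0.281).

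**Figure D2:**
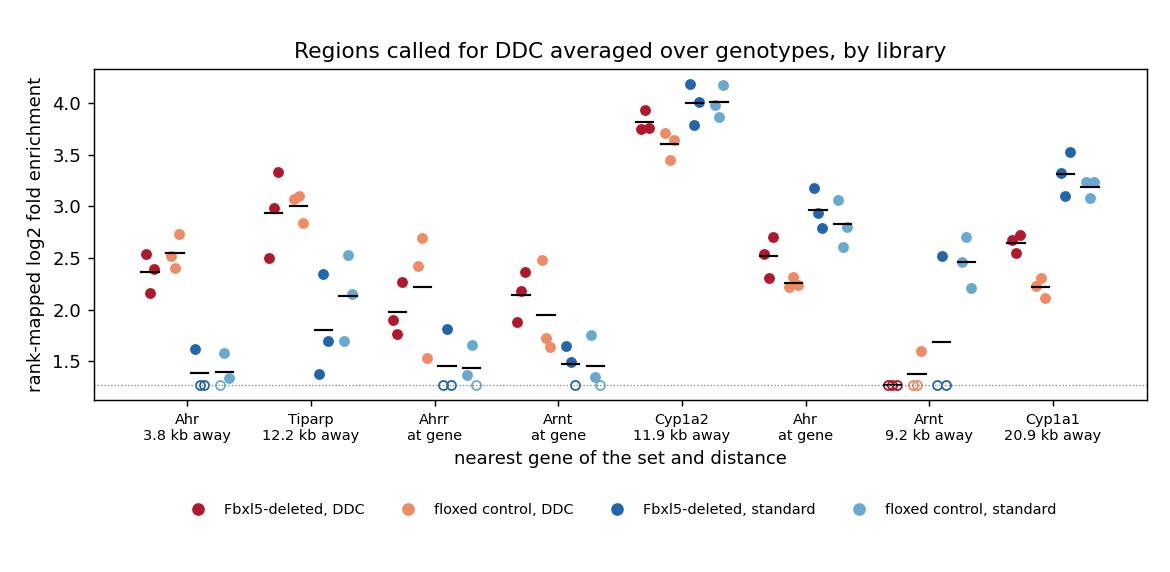
Levels of the 8 regions called for DDC against standard diet averaged over the genotypes (vertical axis, rank-mapped log2 fold enrichment), labelled by nearest gene of the set and distance. Each point is a library, bars are group means of 3 libraries, and open circles on the dotted line at 1.27 are libraries whose list lacks the region. The 4 regions that rose stand on the left and the 4 that fell on the right, and the region 3844 bp from Ahr and the one 20885 bp from Cyp1a1 are those without overlap between the diets. Of all tested regions, 5.87% had no such overlap.

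The strongest regions of the chromosome 9 enzyme locus lay upstream of the Cyp1a1 start and beyond Cyp1a2, and the regions nearest both starts did not pass the test for DDC. CYP1A1 is the inducible monooxygenase whose induction is the classical readout of AHR activity, and Cyp1a1 (gene ID 13076) spans chr9:57687928-57703824 in the annotation used, with the RefSeq start of the promoter window at 57697613. The region nearest that start, chr9:57695964-57697257, lies 356 to 1649 bp upstream of it and was singled out after its values were seen. It had 3.78, 3.49 and 3.72 in Fbxl5-deleted DDC libraries and 3.80, 3.21 and 3.38 in control DDC libraries, against 4.00, 3.71 and 3.86 in Fbxl5-deleted and 3.74, 3.64 and 3.52 in control standard-diet libraries. The diets overlapped in both genotypes, and the averaged DDC difference was -0.18 ± 0.11 log2 (SE, 95% interval -0.41 to 0.05, limma adjusted p = 0.287). It ranked between 6498 and 28085 in the 12 lists and was thus listed on the standard diet as well.

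The region at the lower end of the Cyp1a1 span, chr9:57687490-57688553, lies 9060 to 10123 bp before the start. It had 3.03, 3.37 and 3.49 in Fbxl5-deleted DDC libraries and 3.18, 3.03 and 2.97 in control DDC libraries, against 3.07, 3.11 and 3.10 in Fbxl5-deleted and 3.12, 2.88 and 2.69 in control standard-diet libraries. The groups overlap, with an averaged DDC difference of 0.18 ± 0.13 log2 (SE, 95% interval -0.09 to 0.46, limma adjusted p = 0.365). Between the genotypes it differed by 0.20 on the standard diet (95% interval -0.19 to 0.58) and by 0.23 on DDC (95% interval -0.15 to 0.62).

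CYP1A2 metabolises caffeine and many arylamines, and Cyp1a2 (gene ID 13077) spans chr9:57676937-57683655. Its start is covered by chr9:57683449-57684073, which had 2.31, 2.27 and 2.39 in Fbxl5-deleted DDC libraries and 2.20, 1.60 and 1.49 in control DDC libraries, against 2.77, 2.49 and 2.27 in Fbxl5-deleted and 2.49, 2.15 and 2.62 in control standard-diet libraries. The diets overlapped in both genotypes, while on DDC the Fbxl5-deleted libraries lay above the controls by 0.56 ± 0.26 log2 without passing the test (SE, limma adjusted p = 0.821). The averaged DDC difference was -0.42 ± 0.18 log2 (SE, 95% interval -0.80 to -0.04) and did not pass over all regions (limma adjusted p = 0.133). At chr9:57664440-57665030, 11907 bp beyond Cyp1a2, the levels were 3.75, 3.93 and 3.76 in Fbxl5-deleted DDC libraries and 3.71, 3.45 and 3.64 in control DDC libraries, against 4.19, 3.79 and 4.01 in Fbxl5-deleted and 3.98, 3.86 and 4.17 in control standard-diet libraries. This region, among the strongest of the locus, fell by 0.30 ± 0.10 on average (SE, limma adjusted p = 0.0458), with 1 DDC library above the lowest standard-diet ones. The call was lost without DDC library 1 or 3 or standard-diet library 1 or 3 of the Fbxl5-deleted mice or without DDC library 2 or 3 or standard-diet library 1 or 3 of the controls (adjusted p of 0.0595 to 0.12). Without both libraries that stand apart the averaged difference was -0.19 (limma adjusted p = 0.323).

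The clearest loss of the set lay beyond Cyp1a1, inside its neighbour Edc3, which encodes an enhancer of mRNA decapping. At chr9:57724709-57725038, 20885 bp from Cyp1a1, the levels were 2.67, 2.55 and 2.72 in Fbxl5-deleted DDC libraries and 2.23, 2.30 and 2.12 in control DDC libraries, against 3.32, 3.10 and 3.53 in Fbxl5-deleted and 3.23, 3.08 and 3.23 in control standard-diet libraries. All 6 DDC libraries lay below all 6 standard-diet libraries, while 5.87% of all tested regions had no overlap in either direction. The region fell by 0.97 ± 0.19 log2 in controls (SE, limma adjusted p = 0.00402) and by 0.82 ± 0.14 averaged over the genotypes (adjusted p = 0.000386), and both calls were kept in every fit that left out 1 library. In Fbxl5-deleted mice the difference was -0.67 ± 0.19 and did not pass (limma adjusted p = 0.0647), and the difference between the genotypes' effects was 0.30 ± 0.27 (adjusted p = 0.921). Without both Fbxl5-deleted standard-diet libraries that stand apart in peak number, the averaged difference was -0.71 and still passed (limma adjusted p = 0.0125).

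CYP1B1 metabolises polycyclic hydrocarbons and oestrogens and is known mainly from tissues other than hepatocytes. Cyp1b1 (gene ID 13078, chr17:79706940-79715061) had 4 tested regions, none called. The strongest, chr17:79715559-79716172, lies 498 to 1111 bp upstream of the RefSeq start. It had 3.47, 3.52 and 3.68 in Fbxl5-deleted DDC libraries and 3.17, 3.29 and 3.46 in control DDC libraries, against 3.97, 3.47 and 3.59 in Fbxl5-deleted and 3.53, 3.17 and 3.49 in control standard-diet libraries. On DDC the 3 Fbxl5-deleted libraries lay just above the 3 controls, a difference of 0.25 ± 0.16 log2 that did not pass (SE, limma adjusted p = 0.956), and the diets overlapped in both genotypes. The averaged DDC difference was -0.11 ± 0.12 log2 (SE, 95% interval -0.35 to 0.14, limma adjusted p = 0.585).

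**Figure D3:**
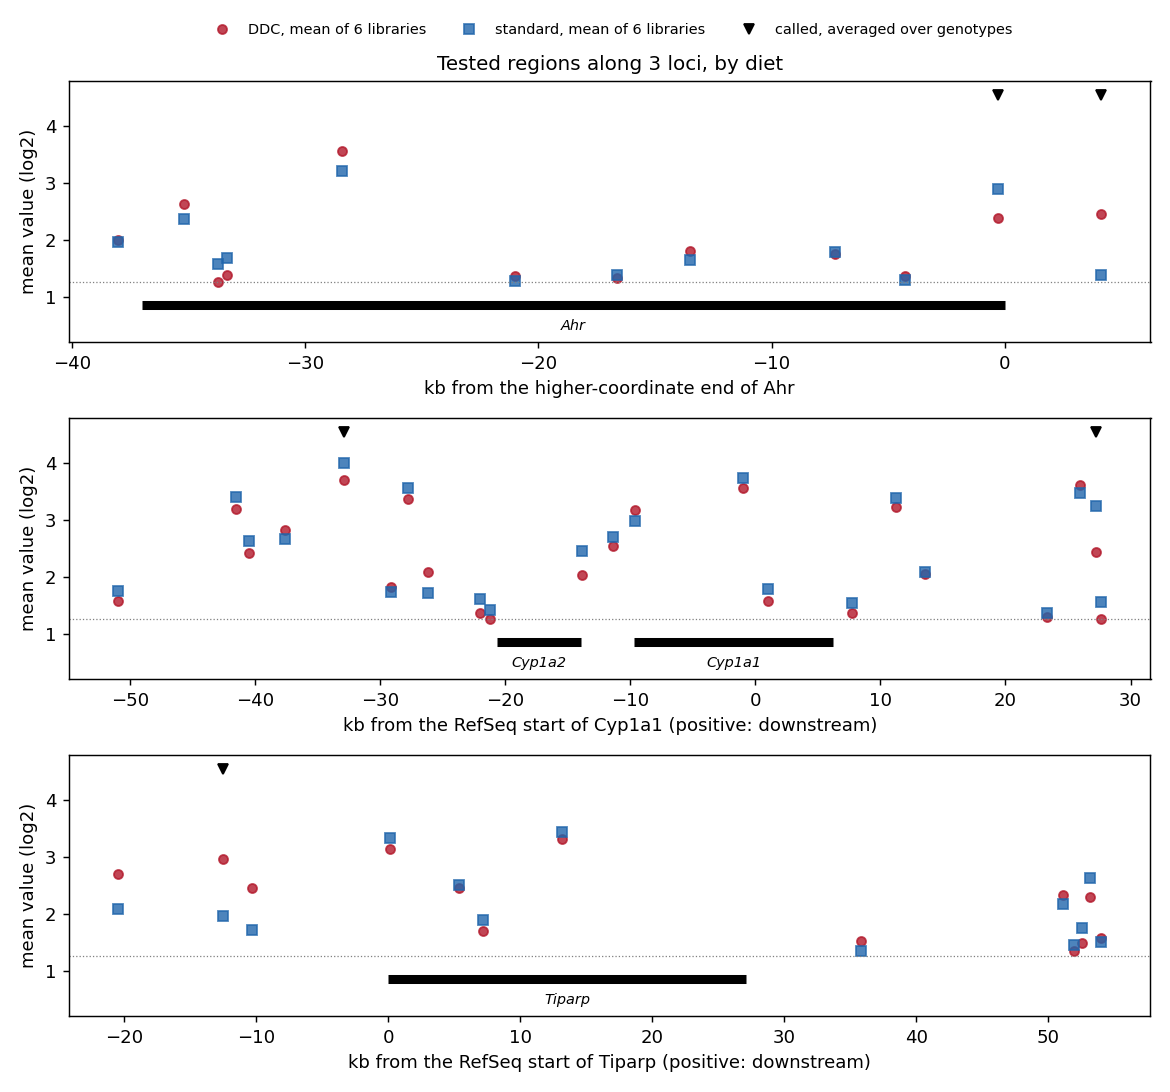
Mean level of each tested region on DDC and on standard diet (vertical axis, rank-mapped log2 fold enrichment, 6 libraries per diet) along 3 loci of the set, by distance in kb from the higher-coordinate end of Ahr or from the RefSeq start of Cyp1a1 or Tiparp (horizontal axis). Black bars are genes, the dotted line is 1.27, and triangles mark regions called for DDC averaged over the genotypes. The region 3844 bp beyond Ahr is higher on DDC and the region 20885 bp beyond Cyp1a1 is lower, while the regions nearest the Cyp1a1 and Tiparp starts differed by -0.18 and -0.20 on average without passing the test.

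No region of the set passed the test between the genotypes on either diet. On the standard diet, 0 of the 82 regions passed in Fbxl5-deleted mice against controls, where 0.000722% of all tested regions did. There, 8 members (9.76%, against 8.09% of all tested regions) had an unadjusted limma p under 0.05, and the lowest adjusted p was 0.383. The largest positive difference was 0.66 ± 0.26 log2 at chr9:57668288-57668717 near Cyp1a2 (SE, limma adjusted p = 0.506), and the largest negative one was -0.77 ± 0.29 at the region before Arnt described above (adjusted p = 0.487). On DDC, 0 of the 82 regions passed, as did 0% of all tested regions, with 6 members (7.32%, against 5.94% of all tested regions) at an unadjusted limma p under 0.05 and a lowest adjusted p of 0.392. The largest positive difference there was 0.74 ± 0.21 at chr3:65541051-65542212 inside Tiparp (SE, limma adjusted p = 0.443), and the largest negative one was the Ctsk-side region described above. None of the 82 regions had its 6 Fbxl5-deleted libraries apart from its 6 control libraries, against 0.191% of all tested regions.

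The diet effect was not called different between the genotypes at any region. Of the 82 regions, 0 passed the interaction test, as did 0% of all tested regions, and 6 members (7.32%, against 5.87% of all tested regions) had an unadjusted limma p under 0.05. The largest positive interaction was 1.11 ± 0.36 log2 at chr3:95427433-95428971, 5396 bp before Arnt, where the DDC difference was 0.29 in Fbxl5-deleted mice against -0.82 in controls (limma adjusted p = 0.847). The largest negative one was -0.82 ± 0.41 at chr13:74245581-74245898 inside Ahrr (limma adjusted p = 0.855). The largest negative DDC difference in Fbxl5-deleted mice, -0.76 ± 0.25 at chr3:95471494-95472051 inside Arnt, did not pass either (limma adjusted p = 0.112). It was in 0 of 3 DDC lists and 2 of 3 standard-diet lists of these mice, and without standard-diet library 2 the difference was -1.15 and passed (adjusted p = 0.00983), both sizes being set by the lowest value given to absent regions.

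**Figure D4:**
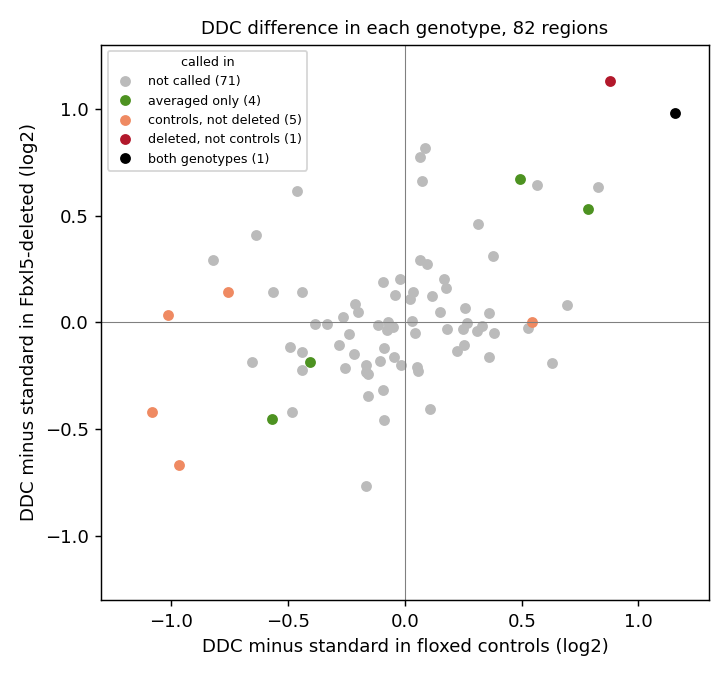
DDC minus standard-diet difference (log2) of each of the 82 tested regions in floxed controls (horizontal axis) and in Fbxl5-deleted mice (vertical axis), coloured by the comparison in which it was called at an adjusted p under 0.05. Of the regions, 71 were called nowhere, 1 was called in both genotypes, 5 in controls and not in Fbxl5-deleted mice, and 1 in Fbxl5-deleted mice and not in controls.

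Further genes of the pathway outside the set were taken from a list of 17 genes with 269 tested regions in the same window. It held chaperones and partners (Hsp90aa1, Hsp90ab1, Ptges3, Arnt2, Hif1a), other AHR-responsive enzymes (Nqo1, Aldh3a1, Ugt1a6a, Ugt1a6b, Gsta1, Gsta2, Cyp2s1), and Nfe2l2, Slc7a5, Tdo2, Por and Fgf21. On DDC, 3 regions rose and 2 fell in Fbxl5-deleted mice (1.86%), 3 rose and 4 fell in controls (2.6%), and 10 rose and 15 fell on average (9.29%), each total below the share of all tested regions. The averaged falls alone were 5.58% of the list's regions, against 4.87% of all tested regions. Deletion and the interaction called 0 of these regions, with 18 (standard diet), 9 (DDC) and 11 (interaction) at an unadjusted limma p under 0.05. These are 6.69%, 3.35% and 4.09% of the list's regions, against 8.09%, 5.94% and 5.87% of all tested regions. None was called at Arnt2, Hif1a, Nqo1 or Tdo2 in any comparison.

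The largest rise of that list was at chr8:121889280-121889818 inside Slc7a5, which encodes a large neutral amino acid transporter that carries tryptophan and kynurenine. Its levels were 3.50, 4.02 and 3.53 in Fbxl5-deleted DDC libraries and 3.90, 4.20 and 3.66 in control DDC libraries, against absent, 1.63 and 2.71 in Fbxl5-deleted and 1.66, absent and 1.36 in control standard-diet libraries. The diets do not overlap, as in 5.87% of all tested regions in either direction. It rose by 1.82 ± 0.29 log2 in Fbxl5-deleted mice (SE, limma adjusted p = 0.00144) and by 2.49 ± 0.29 in controls (adjusted p = 3.39e-05). Near Aldh3a1, an aldehyde dehydrogenase gene induced by AHR ligands, chr11:61220070-61220797 rose by 1.31 ± 0.28 in Fbxl5-deleted mice (SE, limma adjusted p = 0.0122) and by 1.80 ± 0.28 in controls (adjusted p = 0.000481). Regions at the Ugt1a6, Gsta and Hsp90 genes are uncertain, since near-identical copies can share or lose reads.

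The pattern of the Cyp1a1 gene-end region over the 12 libraries was most like those of gene-end regions at Opa1 (Pearson r = 0.90), Dscc1 (0.87), Nog (0.87), Palb2 (0.86) and Myef2 (0.84), out of 13660 gene-end regions listed in all libraries. These are the extremes of many correlations over 12 libraries that share their ranks, and are given as a description.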

How the data were processed

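ATAC-seq was done on hepatocytes of 12 mice, and the authors deposited 1 peak list per library, so peaks were called per sample. Per the submitters' processing notes, the tools were MACS2, deepTools, bedtools, Picard, SAMtools, Bowtie2 and fastp, and the build was mm10. The sources used here do not give their versions, order or settings, or any shift of reads for the transposase. In the deposited lists the fold enrichment is a ratio of peak height to the background of the same library, and the −log10 q and −log10 p are as the peak caller wrote them. The deposited score was not used, nor was the summit position.

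From these lists, summits of 1 peak were merged and the 137034 strongest peaks of each library by fold enrichment were kept. Peaks overlapping by at least 1 bp were joined, and regions in at least 3 of 12 lists were tested. Each rank was replaced by the average log2 fold enrichment at that rank over the libraries, and an absent region took the lowest value, 1.27; a difference against a group that lacks a region in all 3 lists has no true size. Ranks cannot show a change shared by every region. limma 3.58.1 (R 4.3.3, lmFit, eBayes with trend and robust) was fitted to all 12 libraries with 4 group means, two-sided, and p-values were adjusted by the Benjamini-Hochberg method over all 138538 tested regions, with a threshold of 0.05. The procedure was tested on simulated data in which 200 regions were changed by 1.5 log2 in the control DDC libraries. It called 70% of them for DDC in controls and 29% for the interaction. The absence of a called region thus does not show that none differs. Python 3.11.15, numpy 2.4.6, pandas 2.3.3 and matplotlib 3.10.9 were also used. Gene positions, starts and promoters came from RefSeq (GRCm38.p6); 6 of 7 genes matched a promoter. Peak sequences were not read.

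Regions named in the text are, for each gene, the region with the highest mean within 1 kb of a gene end, each called region of the set, and the largest positive and negative difference of each comparison; of the other pathway genes the called regions are given by counts with the largest in values. Some genes of the pathway and marker lists are not reported here and were left out of their counts. The genes of the set, the pathway list and the alternatives were chosen with earlier results of these data known. The alternatives were all deposited peaks, a −log10 q of at least 5, 50% reciprocal overlap, other filters, ranking by −log10 p, plain limma settings, a replicate block, peak number as covariate, windows of 10 and 100 kb, and leaving out libraries.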

Additional observations from a re-analysis of the deposited data

How the results depend on the processing

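The diet counts of called regions depended on the processing, while the counts for deletion on either diet and for the interaction were 0 under every alternative. As reported, 6 of 82 were called in controls, 2 in Fbxl5-deleted mice and 8 on average (7.02%, 3.17% and 13% of all tested regions). The number tested and the share over all regions moved with the setting. All deposited peaks gave 13 of 105 on average (12.8% of all regions), and a −log10 q of at least 5 gave 3 of 45 in controls (7.44%) and 4 in Fbxl5-deleted mice (5.31%). With 50% reciprocal overlap the counts were 2, 1 and 3 of 68 in the order above (4.4%, 1.11% and 7.18%), and with no filter 2, 0 and 3 of 176 (1.13%, 0.413% and 2.78%). Ranking by −log10 p gave 11 of 82 in controls (8.92%). With peak number as a covariate the counts were 2 in controls (2.3%) and 0 in Fbxl5-deleted mice (1.54%). Peak number did not overlap between the diets in controls, so this covariate goes with diet there. The window of 10 kb gave 1 of 57 in Fbxl5-deleted mice and 5 on average, and that of 100 kb gave 10, 4 and 19 of 149. Without both Fbxl5-deleted standard-diet libraries that stood apart, 1 was called in Fbxl5-deleted mice (0.863%). Leaving out 1 library at a time gave 2 to 8 in controls, 0 to 2 in Fbxl5-deleted mice and 3 to 9 on average. Beyond these changes in what was tested, the causes were not tested.

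The averaged calls beyond Ahr and beyond Cyp1a1 held in 22 of 22 alternatives, and that upstream of Tiparp in 20 of 21. Differences that changed sign had not passed the test: at the Arnt start the averaged difference was 0.0676 when ranked by −log10 p, 0.0431 without both libraries that stood apart and -0.0306 to 0.0481 without single libraries. At the Ahrr start it was 0.21 with all deposited peaks and -0.161 to 0.0648 without single libraries, while without both libraries that stood apart it was -0.39 and passed (limma adjusted p = 0.0413). The genotype difference on DDC inside Tiparp was -0.63 at 50% reciprocal overlap. The standard-diet genotype difference before Arnt was 0.00808 with the covariate and 0.063 without both libraries, where the DDC difference at chr3:95471494-95472051 in Fbxl5-deleted mice was 0.00.

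Libraries with the same replicate number did not clearly deviate together (correlations -0.02 to 0.06 over 18 pairs, against -0.04 to 0.03 over 36 others). These values cannot show whether such libraries share a batch, and the labels do not state a pairing. The replicate block gave 7, 2 and 7 called regions. The lists limit precision, since depth is not known and weak regions near the end of a list enter and leave it by small changes of rank.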
